A study of Mus musculus with 16 samples.

Results

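The nuclear oxidative phosphorylation genes are the genes of the cell nucleus that encode the respiratory chain, the ATP synthase and some of their assembly factors. They were chosen by name: every protein-coding gene of the deposited table whose symbol begins with Ndufa, Ndufb, Ndufc, Ndufs, Ndufv, Uqcr, Uqcc, Atp5 or one of Cox4 to Cox8, together with Cyc1, Sdha, Sdhb, Sdhc and Sdhd. This gave 96 of 36722 genes, and 87 of them were among the 13385 genes with enough signal to be tested. The tested members were 7 core and 29 accessory subunits of complex I, all 4 subunits of complex II, 9 of complex III, 12 of complex IV, 14 of complex V and 12 assembly factors. Atp5s and Atp5sl, whose products are not subunits, are counted with the assembly factors.

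RNA came from lumbar dorsal root ganglia (levels L3 to L5) of C57BL/6 mice. Such ganglia contain sensory neuron somata, satellite glia, Schwann cells, vessels and resident immune cells. Every mouse had persistent paw inflammation from 20 µl of 2% carrageenan under the skin of the paw, and on day 6 each received a single intrathecal injection. Vehicle mice received PBS (n = 5 libraries). Fusion protein mice received 1 µg of IL4-10 FP, which joins the anti-inflammatory cytokines IL4 and IL10 in a single molecule (n = 6 libraries). Combination mice received 0.5 µg of unlinked IL4 with 0.5 µg of unlinked IL10 (n = 5 libraries). Ganglia were taken 6 hours later, RNA was extracted with Trizol and polyA-selected libraries were sequenced. Age and sex are not given in the labels, and no uninflamed group was analysed here, so vehicle stands for inflamed, untreated animals and not for healthy ones.

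Oxidative phosphorylation takes place in the inner mitochondrial membrane. Complex I (NADH dehydrogenase) and complex II (succinate dehydrogenase) pass electrons to coenzyme Q, complex III passes them to cytochrome c, and complex IV (cytochrome c oxidase) passes them to oxygen. Complexes I, III and IV pump protons while they do so, and complex V, the ATP synthase, uses the returning protons to make ATP. Sensory neurons have long axons and a high demand for ATP, which these complexes meet. Parts of complexes I, III, IV and V are encoded by mitochondrial DNA, among them the catalytic subunit of complex IV. All members described here are nuclear genes whose products are imported.

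Expression is given on 2 scales. The deposited table is variance-stabilised and log2-like, and each comparison is a log2 difference between group means on that scale with the standard error (SE) of limma. These values convert back exactly to whole numbers, called scaled values here. They had been scaled between libraries, so they are not read counts, and read depth is not known. Per library they summed to 17.23 to 18.73 M in vehicle, 16.71 to 19.08 M in fusion protein and 18.19 to 20.88 M in combination libraries. A gene counts as higher or lower when limma gave a Benjamini-Hochberg adjusted p under 0.05 over all 13385 tested genes, and "rose" and "fell" are used only for such genes.

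Several properties of the libraries moved with the treatment groups. GC content, length and label numbers are taken up beside the main counts and many named members. Results for genes outside the naming rule come only from the fit without trend removal or label covariate. Fold changes of all tested genes leaned on transcript GC content and exonic length. Each main count is also given with trends removed from every library. Unless stated otherwise, these are the trends of exonic length and of the deposited GC content of the gene. Transcript GC, used below for correlations and for the split by GC, was removed only in a separate fit. The sample labels run from 1 to 8 and from 12 to 19, and the later numbers hold all 5 combination libraries, 2 fusion protein libraries and 1 vehicle library. Fits with the later numbers as a covariate are therefore given too. Malat1, mt-Rnr1, mt-Rnr2 and Lars2, transcripts that can mark RNA or library quality, were lower in both treated groups, and with Neat1 their scaled values summed to 52913 to 134337 in vehicle, 14706 to 54647 in fusion protein and 22179 to 49069 in combination libraries. Neuron markers were present (13 of 13 tested, summed scaled values of 337533 to 421402 in vehicle). The labels do not say that each library came from a different mouse, so p-values measure the spread between these libraries.

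Many promoters of these genes are known to bind the transcription factors NRF1, GABP of the ETS family, and YY1. RefSeq promoter windows (build GRCm38.p6, 250 bases before to 50 after the start) were at hand for 79 of the 96 members and 74 of the 87 tested ones, matched by symbol or gene identifier. Both strands were searched for 3 motifs: the NRF1 core motif with 1 free base, CCGGAAG for ETS factors and AAGATGGCG for YY1. The NRF1 letters were found in 20 of the 74 tested members with a window (27.0%, against 5.19% of all 27025 genes with a window), the ETS letters in 16 (21.6% against 9.93%) and the YY1 letters in 8 (10.8% against 1.64%). At least 1 of the 3 motifs was found in 38 members (51.4% against 15.1%). A gene with more than 1 window counted when any of them matched. The 27025 genes were not limited to tested genes, so these shares compare unlike sets of genes. A match describes the letters and does not show that a factor binds. The stretches below are shown because they belong to 4 members on which the results turn, with an NRF1 match in Ndufb4 and Atp5h and an ETS match in Uqcrh and Uqcr11. Each is read 5′ to 3′ on the strand of the gene, with the match in capitals (the ETS letters of Uqcrh lie on the opposite strand), and holds the 150 bases before the gene as GENCODE annotates it.
Ndufb4 (chr16:37654454-37654603, minus strand): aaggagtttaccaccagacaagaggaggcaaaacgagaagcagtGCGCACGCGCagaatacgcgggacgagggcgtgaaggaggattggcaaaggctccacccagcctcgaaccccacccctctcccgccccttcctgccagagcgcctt
Atp5h (chr11:115419963-115420112, minus strand): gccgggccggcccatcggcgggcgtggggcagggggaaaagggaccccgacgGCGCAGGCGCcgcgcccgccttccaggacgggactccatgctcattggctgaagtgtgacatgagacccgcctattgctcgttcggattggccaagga
Uqcrh (chr4:116075072-116075221, minus strand): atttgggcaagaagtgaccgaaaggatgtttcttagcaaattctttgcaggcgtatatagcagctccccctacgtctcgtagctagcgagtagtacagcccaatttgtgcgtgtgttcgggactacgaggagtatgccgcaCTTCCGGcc
Uqcr11 (chr10:80406831-80406980, minus strand): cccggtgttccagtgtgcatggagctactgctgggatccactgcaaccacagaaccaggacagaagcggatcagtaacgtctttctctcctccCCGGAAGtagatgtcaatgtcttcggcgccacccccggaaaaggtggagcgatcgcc

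In the vehicle group, levels per kilobase of exon ordered the complexes. The median member had 2125 scaled units per kb in complex IV, 1255 in complex II, 1144 in complex III, 1046 in complex V, 875 among the accessory and 867 among the core subunits of complex I, and 189 among the assembly factors. Cox6b1 of complex IV stood highest at 5481 per kb. It was followed by Cox6a1 at 4223, Atp5a1 at 4218, Atp5b at 4106 and Cox8a at 4042. Ndufb4, at 30.0 per kb, stood lowest of the tested members, below the assembly factor Ndufaf6 at 53.1. All members together held 0.895% ± 0.0779 (SD, n = 5) of the summed scaled values in vehicle libraries (0.806 to 1.01), 1.10% ± 0.0952 (n = 6) in fusion protein libraries (0.989 to 1.20) and 1.02% ± 0.0706 (n = 5) in combination libraries (0.956 to 1.13). The ranges of the 3 groups overlapped in this share.

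The 9 members that did not pass the filter are mostly isoforms of other tissues. Cox6a2, Cox7a1 and Cox8b, the heart and skeletal muscle forms, had scaled values of 1 to 20, 21 to 38 and 2 to 10 over the 16 libraries. Cox7b2 and Cox8c, testis forms, had 1 to 6 and 1 in every library, where 1 is the value of an undetected gene. Cox4i2, a lung form, had 2 to 14, and Ndufa4l2, a hypoxia-induced relative of Ndufa4, had 3 to 10. Their widely expressed partners Cox4i1, Cox6a1, Cox7a2, Cox7b, Cox8a and Ndufa4 had vehicle means of 3463, 2964, 2340, 2448, 2502 and 3804. The testis form Cox6b2 was low and untested, with 7 to 15 in vehicle, 10 to 51 in fusion protein and 14 to 60 in combination libraries. The ninth untested member, Atp5l, is the single gene for subunit g of complex V and had only 13 to 34. Pseudogene copies of Atp5l, Uqcrh, Ndufab1 and Atp5k stand in the table as separate rows, 7 in all, so reads of these members may have been split by the authors' counting, and their levels are uncertain. Copies under symbols outside the naming rule were not searched for. Levels of other members, among them the low Ndufb4, may be uncertain for the same reason. The lowest tested members, just inside the filter of a mean log2 value of 6.99, were Ndufaf6 at 7.60, Atp5g2 at 7.91 and Ndufb4 at 7.93, and the highest untested was Cox7a1 at 6.91.

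The comparison of the fusion protein with vehicle asks what a single intrathecal dose did to these genes within hours in inflamed animals. Of the 87 members 46 rose, 0 fell and 41 did not pass, while 12.0% of all tested genes were higher and 13.7% lower. The median difference was 0.29, against -0.02 over all tested genes, and 85 of 87 estimates were above 0. In 29 members all 6 fusion protein libraries lay above all 5 vehicle libraries, which was so for 7.76% of all tested genes, and in 0 members all lay below (6.57%). In bulk ganglia, fewer cells of a type and less RNA per cell cannot be told apart, and this holds for every difference below.

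The rise with the fusion protein was spread over the complexes. Of the core subunits of complex I, 5 of 7 rose (median 0.32), and of its accessory subunits 14 of 29 (0.32). Complex II had 3 of 4 (0.25), complex III 4 of 9 (0.33), complex IV 8 of 12 (0.29), complex V 7 of 14 (0.23) and the assembly factors 5 of 12 (0.20). With GC and length trends removed 24 rose and 1 fell, 21 of the 46 were still higher, the median was 0.11, and 11.0% of all tested genes were higher and 13.0% lower. Complex IV then had 2 members higher and the accessory subunits of complex I had 6. The differences of the members leaned on length (Pearson r = -0.41 with log2 exonic length over 87 members, and -0.41 over all 13370 tested genes with a length), and the members are short, with a median exonic length of 1789 bases against 4616 for all tested genes.

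**Figure D1:**
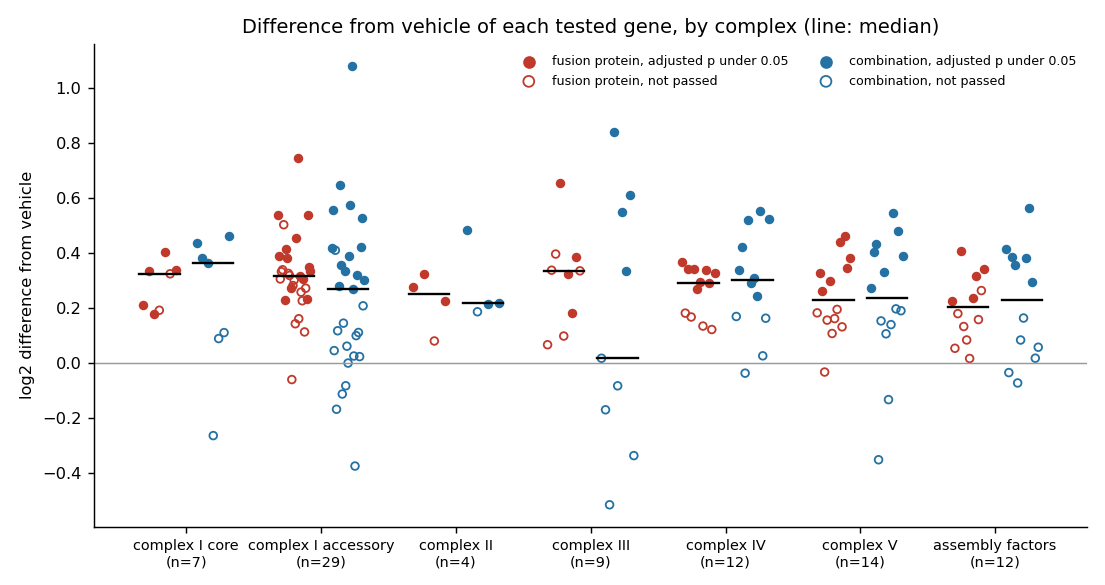
Log2 difference from vehicle (vertical axis) of each of the 87 tested members, grouped by complex, for the fusion protein (red) and the combination (blue). Filled points passed an adjusted p of 0.05, open points did not, and black lines are medians; no point passes below 0, and the combination median of complex III lies at 0.02 while the other medians lie at 0.20 or above.

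The comparison of the combination with vehicle asks the same of the unlinked cytokines. Again 46 members rose, 0 fell and 41 did not pass, while 24.2% of all tested genes were higher and 12.3% lower. The median difference was 0.27, against 0.06 over all tested genes, but 15 estimates were below 0. In 37 members all 5 combination libraries lay above all 5 vehicle libraries, which was so for 15.1% of all tested genes. Both comparisons use the same vehicle libraries.

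With the combination 4 of 7 core subunits of complex I rose (median 0.36), 14 of 29 accessory subunits (0.27), 3 of 4 of complex II (0.22), 4 of 9 of complex III (0.02), 8 of 12 of complex IV (0.30), 7 of 14 of complex V (0.23) and 6 of 12 assembly factors (0.23). With GC and length trends removed 31 rose and 0 fell, 28 of the 46 were still higher, the median was 0.17, and 19.4% of all tested genes were higher and 7.64% lower. With the later label numbers as a covariate 34 rose and 5 fell (Ndufs7, Ndufb7, Uqcrc1, Atp5d and Atp5sl), the median was 0.20, and 20.2% of all tested genes were higher and 11.5% lower. The earlier numbers hold no combination library. Within the label numbers 12 to 19, where 1 vehicle library stood against 5 combination libraries and was assumed to vary like the other groups, 9 members were higher and 0 lower with a median of 0.22 (2.49% of all tested genes higher and 3.22% lower). The fusion protein comparison within these numbers, with 2 libraries against 1, had 1 member higher and 0 lower and a median of 0.34 (1.20% of all tested genes higher and 0.650% lower). The same covariate left the fusion protein comparison at 47 higher and 0 lower (12.7% of all tested genes were then higher), and within the label numbers 1 to 8 alone 31 rose and 0 fell with a median of 0.25 (7.67% of all tested genes higher and 8.49% lower). With array weights, which give noisy libraries less influence, 75 members were higher and 0 lower with the fusion protein (20.6% and 25.0% of all tested genes) and 56 and 0 with the combination (34.3% and 17.9%).

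**Figure D2:**
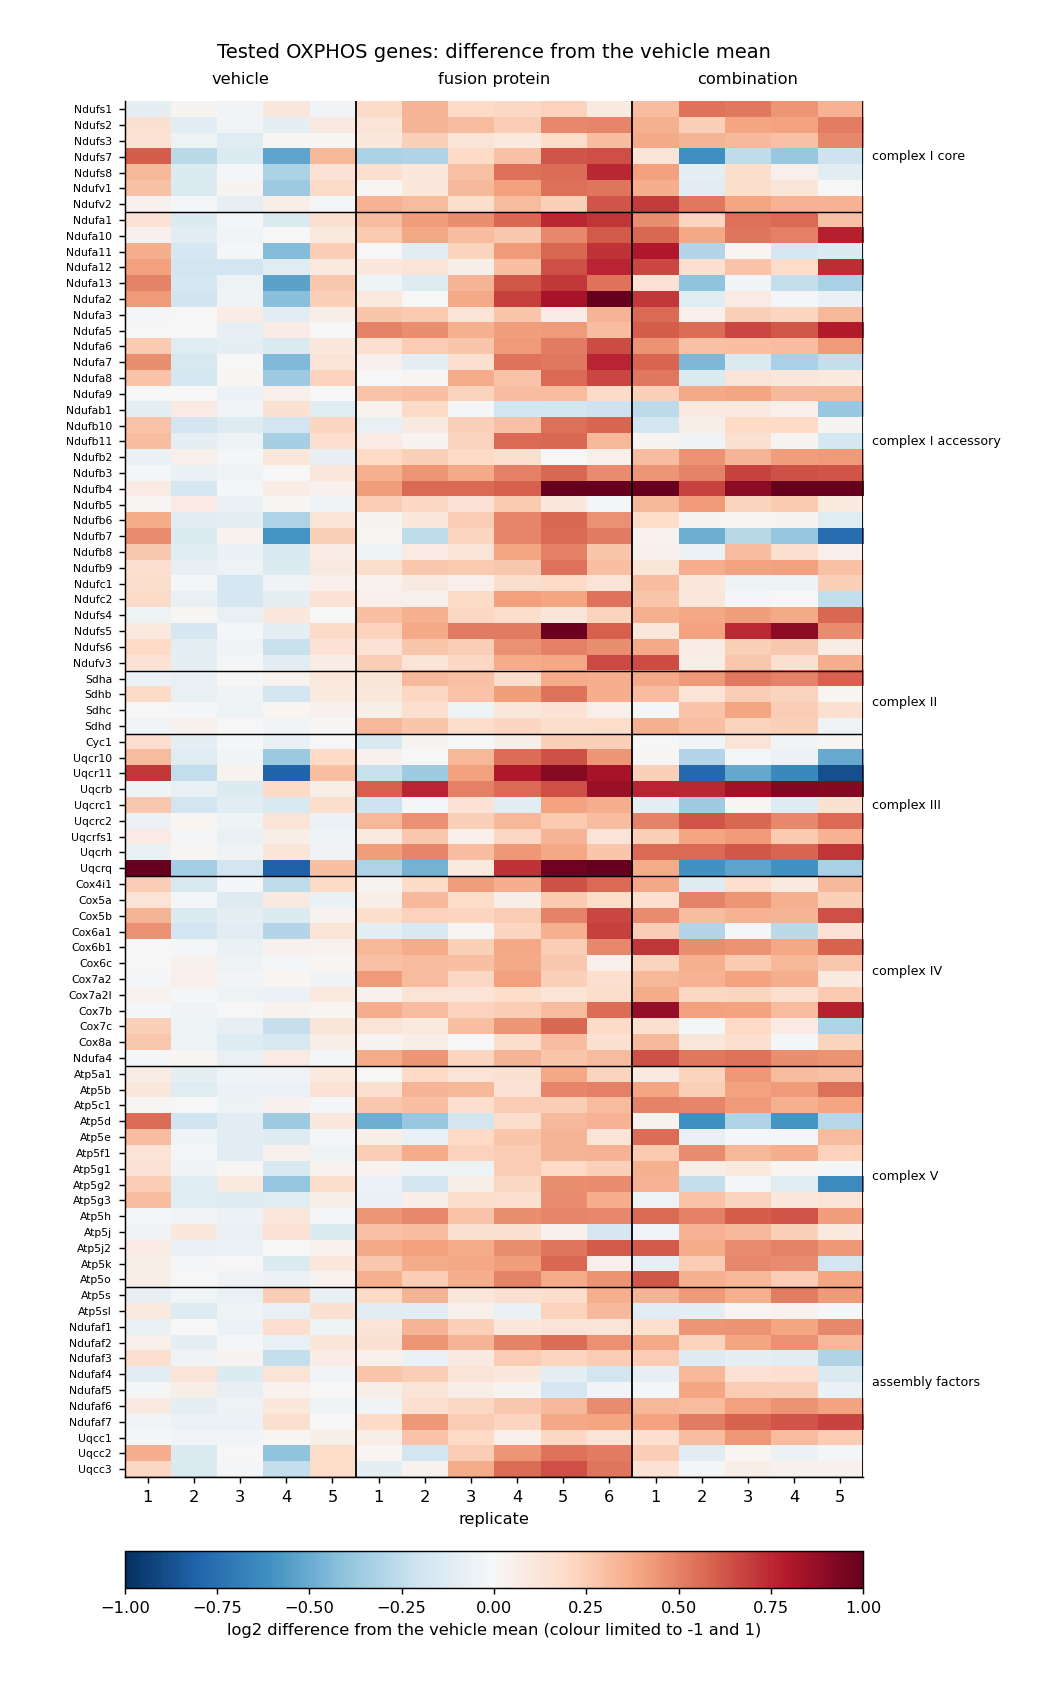
Log2 difference of each library from the vehicle mean for the 87 tested members (rows, by complex), with the 5 vehicle, 6 fusion protein and 5 combination libraries as columns; red is higher and blue lower, with colours limited to 1 and -1. Rows such as Uqcrb and Ndufa5 are red in every treated library, whereas Uqcr11, Uqcrq, Ndufs7, Ndufb7 and Atp5d vary widely within each group, vehicle included.

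Complex I takes electrons from NADH through a chain of iron-sulfur clusters held by its core subunits. Ndufv2, a core subunit of the NADH-binding end (GRCm38 chromosome 17, 66078638 to 66101559), had scaled values of 2378, 2266, 2165, 2409 and 2281 in vehicle replicates 1 to 5, of 2956, 2888, 2615, 2896, 2735 and 3632 in fusion protein replicates 1 to 6 and of 3803, 3362, 3055, 2966 and 2952 in combination replicates 1 to 5. Every treated library lay above every vehicle library. Ndufv2 rose by 0.34 ± 0.08 (SE) with the fusion protein (limma adjusted p = 0.00488) and by 0.46 ± 0.08 with the combination (0.000369). With trends removed the differences were 0.13 and 0.18 and neither passed (0.245 and 0.114).

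Ndufs1, the largest core subunit and a carrier of iron-sulfur clusters (chromosome 1, 63143596 to 63176833), is also one of the longest members, with 8086 exonic bases. It had 3511 to 4057 in vehicle, 3985 to 4782 in fusion protein and 4670 to 5502 in combination libraries. It rose by 0.21 ± 0.06 with the fusion protein (adjusted p = 0.0207) and by 0.43 ± 0.07 with the combination (9.7e-05), and with trends removed these were 0.26 (0.00117) and 0.34 (0.000137). The fusion protein call ended without 1 library, vehicle replicate 3 (0.0511). Ndufs8, another iron-sulfur core subunit, rose with the fusion protein by 0.40 ± 0.13 (0.0293), with 892 to 1464 in vehicle and 1234 to 2009 in fusion protein libraries, which overlap. Leaving out any 1 of 6 libraries ended this call (adjusted p up to 0.089). Its difference with the combination was 0.09 ± 0.14 (0.643). Ndufs3, of the part that binds coenzyme Q, rose by 0.18 ± 0.06 (0.0398) and 0.36 ± 0.06 (0.000309), but with trends removed its fusion protein difference was 0.00 (0.993), and leaving out any 1 of 7 libraries ended that call (up to 0.121). Its combination difference was 0.12 (0.298) with trends removed and the label covariate together, which did not pass.

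Accessory subunits surround the core of complex I and stabilise it. Ndufa5, of the arm that reaches into the matrix (chromosome 6, 24518666 to 24528013), had 1171, 1178, 1101, 1243 and 1181 in vehicle, 1707, 1671, 1532, 1613, 1619 and 1485 in fusion protein and 1846, 1790, 1932, 1870 and 2122 in combination libraries. The 3 groups did not overlap, with the combination highest. Ndufa5 rose by 0.41 ± 0.06 (adjusted p = 0.000102) with the fusion protein and by 0.65 ± 0.06 (1.7e-06) with the combination, ratios of mean scaled values of 1.37 and 1.63. With trends removed the values were 0.13 (0.0936) and 0.33 (0.00042).

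Ndufb4, an accessory subunit of the membrane arm whose upstream stretch with an NRF1 match is printed above (chromosome 16, 37647170 to 37654453), had the largest difference from vehicle of all members in both comparisons. It had 65, 42, 55, 64 and 61 in vehicle, 104, 125, 125, 130, 210 and 272 in fusion protein and 215, 142, 181, 219 and 398 in combination libraries. All treated libraries lay above all vehicle libraries, and fusion protein replicates 5 and 6 and combination replicate 5 were the highest of their groups. It rose by 0.75 ± 0.17 (adjusted p = 0.00367) and 1.08 ± 0.17 (0.000184), ratios of mean scaled values of 2.80 and 4.02, since the stabilised scale compresses differences of weakly expressed genes. With trends removed it still rose, by 0.55 (0.0266) and 0.88 (0.00175). With trends removed and the label covariate together, its combination difference was 0.55 (0.078), which did not pass.

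Ndufa1, a small membrane subunit encoded on chromosome X (37187588 to 37191163), rose by 0.54 ± 0.09 (adjusted p = 0.000454) and 0.42 ± 0.10 (0.0024), from 628 to 802 in vehicle to 905 to 1277 and 837 to 1102. With trends removed 0.27 (0.0329) remained with the fusion protein and 0.20 (0.106) with the combination. With the label covariate the combination difference of Ndufa1 was 0.21 (0.132), which did not pass. Ndufab1, the mitochondrial acyl carrier protein, differed by -0.06 ± 0.10 (0.674) and -0.08 ± 0.10 (0.546), and Ndufb11, a membrane arm subunit, by 0.30 ± 0.11 (0.0582) with the fusion protein and by less than 0.01 with the combination (0.997). Of the 29 accessory subunits 5 had estimates below 0 with the combination, and 1 had with the fusion protein.

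Complex II also belongs to the tricarboxylic acid (TCA) cycle, where it oxidises succinate. Sdha, its flavoprotein and catalytic subunit (chromosome 13, 74322254 to 74350280), had 5725, 5673, 5951, 6148 and 6440 in vehicle, 6499, 7516, 7372, 6779, 7776 and 7734 in fusion protein and 7838, 8059, 8670, 8477 and 9090 in combination libraries. The 3 groups did not overlap, although fusion protein replicate 1 lay only just above vehicle replicate 5. Sdha rose by 0.28 ± 0.07 (adjusted p = 0.00485) and 0.48 ± 0.07 (4.33e-05), and with trends removed by 0.20 (0.0448) and 0.30 (0.00545). With trends removed and the label covariate together, the combination difference of Sdha was 0.13 (0.285), which did not pass.

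The other subunits of complex II changed less evenly. Sdhb, the iron-sulfur subunit, had 2062 to 2734 in vehicle, 2567 to 3500 in fusion protein and 2391 to 2955 in combination libraries. It rose with the fusion protein by 0.32 ± 0.08 (adjusted p = 0.00854), and its combination difference was 0.19 ± 0.09 (0.104), which passed with trends removed (0.25, 0.00342). The membrane anchor Sdhd rose by 0.23 ± 0.07 (0.0169) and 0.22 ± 0.07 (0.0176). Both Sdhd differences lay near 0 with trends removed (-0.02 and 0.01). The other anchor, Sdhc, rose with the combination by 0.21 ± 0.07 (0.0236), a call that ended when any 1 of 4 libraries was left out (up to 0.0749), with trends removed (0.06, 0.545) and with the label covariate (0.18, 0.141). It differed by 0.08 ± 0.07 (0.402) with the fusion protein.

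Complex III held members that rose in every treated library and others that varied widely within each group. Uqcrb, a small subunit near the coenzyme Q site (chromosome 13, 66900617 to 66905378), had 965, 942, 899, 1159 and 1046 in vehicle, 1577, 1772, 1465, 1540, 1630 and 1911 in fusion protein and 1779, 1762, 1882, 2010 and 1998 in combination libraries. Every treated library lay above every vehicle library, and the treated groups overlapped.
Uqcrb rose by 0.66 ± 0.07 (adjusted p = 1.56e-05) with the fusion protein, a ratio of 1.65, and by 0.84 ± 0.08 (1.69e-06) with the combination, a ratio of 1.88. With trends removed it still rose, by 0.36 (0.00337) and 0.51 (0.000239). Uqcrb is also among the GC-poorest members, with a transcript GC content of 42.2%.

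Uqcrh, the hinge protein that docks cytochrome c1 to its partner (chromosome 4, 116066965 to 116075071), had 2754, 2923, 2814, 3157 and 2827 in vehicle, 3907, 4115, 3607, 3940, 3824 and 3522 in fusion protein and 4342, 4333, 4528, 4403 and 4834 in combination libraries. Again the 3 groups did not overlap. It rose by 0.38 ± 0.06 (adjusted p = 0.00022) and 0.61 ± 0.06 (3.36e-06), and with trends removed the differences were 0.12 (0.111), which did not pass, and 0.34 (0.000431). Uqcrc2, a core protein of the complex that faces the matrix, rose by 0.32 ± 0.06 (0.0008) and 0.55 ± 0.06 (9.02e-06). Cyc1, cytochrome c1 itself, differed by 0.07 ± 0.07 (0.534) and 0.02 ± 0.08 (0.885), with 1319 to 1612, 1259 to 1692 and 1385 to 1562 in the 3 groups.

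Uqcr11, Uqcr10 and Uqcrq, small subunits of complex III, varied widely within groups. Uqcr11 (chromosome 10, 80402997 to 80406830) had 1226, 575, 721, 355 and 896 in vehicle, 587, 524, 974, 1316, 1424 and 1340 in fusion protein and 849, 362, 459, 408 and 330 in combination libraries. Vehicle replicate 1 lay close to fusion protein replicates 4 to 6, and fusion protein replicates 1 and 2 lay close to vehicle replicate 2. The differences from vehicle were 0.40 ± 0.31 (adjusted p = 0.362) and -0.52 ± 0.32 (0.226). Uqcrq had 330 to 1476 in vehicle, 445 to 1437 in fusion protein and 396 to 893 in combination libraries, with differences of 0.33 ± 0.35 (0.513) and -0.34 ± 0.37 (0.505).

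**Figure D3:**
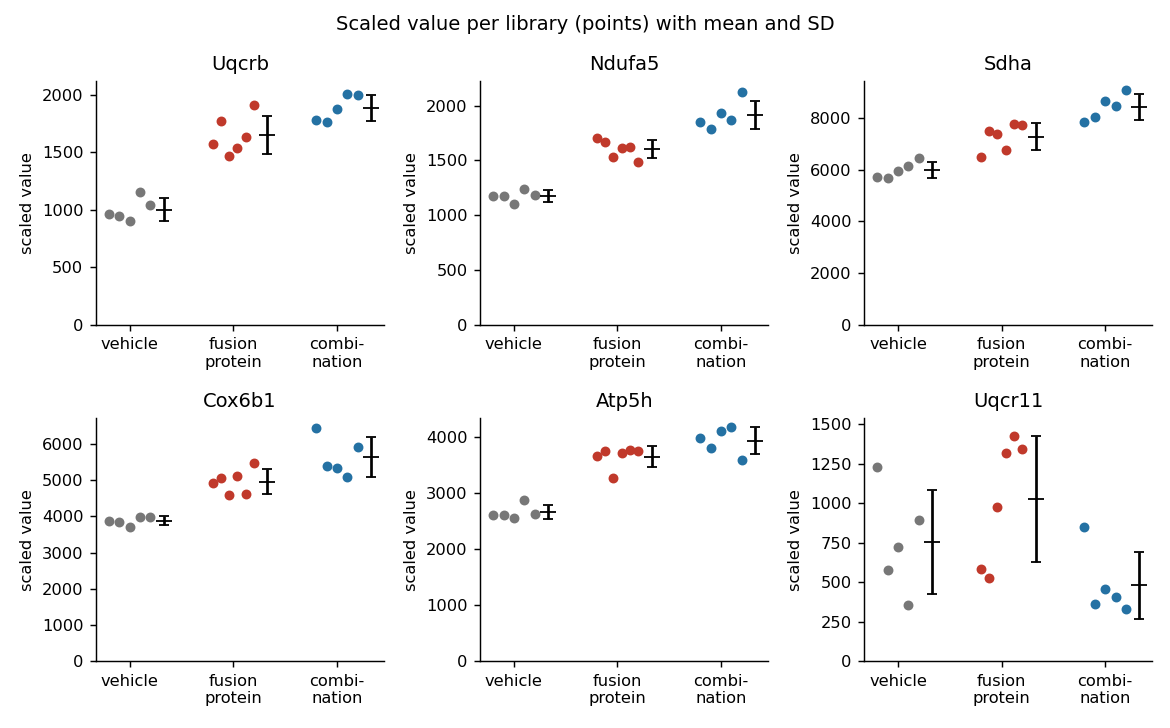
Scaled values (vertical axes, from 0) of 6 members in each library, with the mean and SD of each group beside the points: vehicle grey (n = 5), fusion protein red (n = 6), combination blue (n = 5). For Uqcrb, Ndufa5, Sdha, Cox6b1 and Atp5h every treated library lies above every vehicle library, whereas for Uqcr11 the vehicle libraries run from 355 to 1226 and overlap both treated groups.

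Complex IV reduces oxygen. Cox6b1, a small subunit on the face that receives cytochrome c (chromosome 7, 30616861 to 30626151), had 3883, 3852, 3699, 3994 and 3974 in vehicle, 4907, 5066, 4588, 5116, 4614 and 5472 in fusion protein and 6446, 5391, 5341, 5098 and 5909 in combination libraries. All treated libraries lay above the vehicle libraries. Cox6b1 rose by 0.34 ± 0.07 (adjusted p = 0.00132) and 0.52 ± 0.07 (3.11e-05), and with trends removed the differences were 0.09 (0.273), which did not pass, and 0.37 (0.000431).

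Ndufa4, named after complex I but now assigned to complex IV, had 3615 to 4040 in vehicle, 4431 to 5193 in fusion protein and 5226 to 5980 in combination libraries, 3 ranges without overlap. It rose by 0.33 ± 0.06 (adjusted p = 0.000682) and 0.52 ± 0.06 (1.05e-05), of which 0.06 (0.369) and 0.20 (0.00639) were left with trends removed. The combination difference of Ndufa4 did not pass with trends removed and the label covariate together (0.19, 0.0668). Cox7b rose by 0.34 ± 0.09 (0.0112) and 0.55 ± 0.10 (0.00025), and with trends removed its differences were 0.06 and 0.22, where neither passed (0.665 and 0.0927). Cox4i1, the widely expressed form of the largest nuclear subunit, rose with the fusion protein by 0.37 ± 0.12 (0.0279), which ended when any 1 of 6 libraries was left out (up to 0.0848). Its combination difference was 0.17 ± 0.12 (0.301), which passed with trends removed (0.24, 0.0317). Cox7a2 rose by 0.29 ± 0.07 (0.00344) and 0.31 ± 0.07 (0.00197), and lay at 0.01 and -0.01 with trends removed. With transcript GC in place of gene GC the Cox7a2 differences were 0.07 (0.537) and 0.18 (0.118), and neither passed. Cox8a differed by 0.12 ± 0.08 (0.292) and 0.16 ± 0.09 (0.15), and Cox6a1 by 0.17 ± 0.16 (0.454) and -0.04 ± 0.16 (0.879). Cox7c rose with the fusion protein by 0.29 ± 0.10 (0.0487), with any 1 of 10 libraries able to end the call (up to 0.139), and differed by 0.03 ± 0.11 (0.875) with the combination. The fusion protein difference of Cox7c was 0.02 (0.908) with trends removed and 0.27 (0.0584) with the label covariate, and passed in neither.

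Complex V couples the return of protons to ATP synthesis. Atp5h, subunit d of the stalk that holds the catalytic head still, with an NRF1 match in the stretch printed above (chromosome 11, 115415689 to 115419962), had 2623, 2615, 2552, 2879 and 2640 in vehicle, 3665, 3754, 3269, 3725, 3776 and 3753 in fusion protein and 3995, 3819, 4108, 4186 and 3590 in combination libraries. Every treated library was above every vehicle library. Atp5h rose by 0.44 ± 0.06 (adjusted p = 7.52e-05) and 0.54 ± 0.06 (9.71e-06), and still with trends removed, by 0.25 (0.00733) and 0.45 (9.53e-05).

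Atp5j2, subunit f of the membrane part (chromosome 5, 145183698 to 145192062), had 1482 to 1655 in vehicle, 2051 to 2444 in fusion protein and 2048 to 2448 in combination libraries. It rose by 0.46 ± 0.06 (adjusted p = 6.7e-05) and 0.48 ± 0.07 (3.38e-05), and these hardly moved when trends were removed, at 0.40 (5.62e-05) and 0.47 (1.22e-05). The catalytic beta subunit Atp5b, added here for its role and not by the rule for named genes, rose by 0.33 ± 0.08 (0.00673) and 0.40 ± 0.09 (0.00135), from 15920 to 19161 in vehicle to 19178 to 24719 and 20495 to 25510, and with the label covariate the combination difference of Atp5b was 0.22 (0.0829). The central stalk subunit Atp5d had 1617 to 3177, 1481 to 2733 and 1345 to 2172, with differences of -0.03 ± 0.18 (0.912) and -0.35 ± 0.19 (0.164). Atp5g1, a gene for the proton-carrying subunit c, differed by 0.11 ± 0.08 in both comparisons (0.342 and 0.344).

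Assembly factors do not stay in the finished complexes. Atp5s is grouped with them here because its product is not a subunit. Ndufaf7, a methyltransferase that acts on a core subunit of complex I, had 607 to 726 in vehicle, 752 to 902 in fusion protein and 881 to 1091 in combination libraries. It rose by 0.32 ± 0.07 (adjusted p = 0.00235) and 0.56 ± 0.07 (1.63e-05), and with trends removed by 0.21 (0.0207) and 0.38 (0.000423). Ndufaf2, another complex I assembly factor, rose by 0.41 ± 0.07 (0.000606) and 0.36 ± 0.08 (0.00128), and Atp5s by 0.23 ± 0.07 (0.0234) and 0.41 ± 0.07 (0.000305). Trend removal left Atp5s at 0.02 (0.834) and 0.17 (0.071), and Ndufaf2 at 0.27 (0.0201) and 0.15 (0.189). With the label covariate Ndufaf2 did not pass with the combination (0.24, 0.0555). The Atp5s call with the fusion protein also ended when any 1 of 4 libraries was left out (up to 0.0624). Uqcc3, an assembly factor of complex III, rose with the fusion protein by 0.34 ± 0.12 (0.0404), a call that any 1 of 7 libraries could end (up to 0.114) and that was not made with trends removed (0.19, 0.0967). Uqcc3 differed by 0.06 ± 0.12 (0.751) with the combination. Uqcc2 differed by 0.26 ± 0.14 (0.173) and 0.02 ± 0.14 (0.94). Ndufaf5, a hydroxylase of complex I assembly, differed by 0.02 ± 0.08 (0.903) with the fusion protein, and with trends removed it fell by 0.22 (0.0268), the single member lower in that fit.

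The treatments were also compared with each other. They hold the same cytokines linked and unlinked. The doses were 1 µg of fusion protein and 0.5 µg of each free cytokine at the same time point. Uqcr11, Ndufb7, Ndufa13 and Uqcr10 were higher with the fusion protein, 12 members were lower and 71 did not pass, while 7.35% of all tested genes were higher and 22.2% lower. The median difference was -0.01 against -0.09 over all tested genes, and it turned to 0.10 under quantile normalization, where 2 members were higher and 2 lower. With that normalization 972 of all tested genes were higher and 1411 lower. In 0 members did all fusion protein libraries lie above all combination libraries (3.09% of all tested genes), and in 7 all lay below (6.44%).

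The 12 members lower with the fusion protein had, by arithmetic, a larger difference from vehicle with the combination. Both differences are taken from the same vehicle mean, so this is not a separate result. Ndufb2, an accessory subunit of complex I, differed by -0.25 ± 0.06 (adjusted p = 0.00979), with 652 to 789 in fusion protein and 836 to 933 in combination libraries. Ndufa5 differed by -0.24 ± 0.06 (0.00998), Ndufaf7 by -0.25 ± 0.07 (0.014), Uqcrc2 by -0.23 ± 0.06 (0.0122), Uqcrh by -0.23 ± 0.06 (0.0126) and Ndufs1 by -0.22 ± 0.06 (0.0177), which ended without combination replicate 2 (0.0558). With trends removed Ndufs1 differed by -0.07 (0.271) and Ndufaf7 by -0.17 (0.0627), and neither passed. Ndufaf7 also did not pass with the label covariate (-0.20, 0.0682). Under quantile normalization Ndufa5 (-0.11, 0.126), Uqcrc2 (-0.06, 0.344), Uqcrh (-0.07, 0.302) and Ndufs1 (-0.06, 0.438) did not pass either. The remaining 6 were Sdha, Ndufs3, Ndufs4, Ndufa4, Atp5c1 and Ndufaf1.

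The 4 members higher with the fusion protein were GC-rich and variable. Uqcr11 differed by 0.91 ± 0.31 (adjusted p = 0.0385), Ndufb7, an accessory subunit of complex I, by 0.63 ± 0.19 (0.0239), Ndufa13 of complex I by 0.51 ± 0.18 (0.0481) and Uqcr10 by 0.51 ± 0.14 (0.0139). Their transcript GC contents were 58.9%, 59.7%, 60.4% and 55.5%. With trends removed Uqcr11 was at 0.68 (0.044), Ndufb7 at 0.46 (0.0378) and Uqcr10 at 0.38 (0.0205), all still higher, and Ndufa13 at 0.32 (0.0793), which did not pass. Ndufb7 had 905, 729, 1054, 1306, 1383 and 1331 in fusion protein and 920, 602, 719, 656 and 481 in combination libraries, beside 1288, 801, 917, 550 and 1074 in vehicle. As with Uqcr11, the fusion protein replicates 1 and 2 lay within the combination range, and combination replicate 1 was the highest of its group. Leaving out any 1 of 8 libraries ended the call of Uqcr11 (up to 0.0921), of 11 that of Ndufa13 (up to 0.117) and of 5 that of Ndufb7 (up to 0.0642).

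Counts in the comparison between treatments moved with the choice of libraries and model. With the later label numbers as a covariate 26 members were higher and 8 lower (10.0% and 22.8% of all tested genes), and within the label numbers 12 to 19, with 2 fusion protein and 5 combination libraries, 23 were higher and 3 lower (10.4% and 18.5%). With array weights 21 were higher and 21 lower (11.9% and 35.0%). With GC and length trends removed 3 were higher and 12 lower (4.26% and 14.9%), and of the 12 members lower before, 7 were among them. With the label covariate 8 of the 12 were still lower, and all 4 higher members were still higher. The higher count was 13 without combination replicate 1, 12 without fusion protein replicate 2 and 10 without fusion protein replicate 1, was 1 or 2 without any other single fusion protein or combination library, and the lower count was 7 without combination replicate 2. The label numbers and the combination group overlap, so their parts in this comparison cannot be told apart.

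Transcript GC content ordered the members in the combination comparison. The difference from vehicle had a Pearson r of -0.54 with transcript GC over the 87 members, and -0.59 over all 13370 tested genes with a value, while for the fusion protein these were -0.11 and -0.17. Between the treatments they were 0.55 and 0.43. The genes share the same libraries and are not independent, so the values describe these libraries only. Among the 43 members with transcript GC of 42.0 to 51.8%, 27 rose with the fusion protein and 31 with the combination (medians 0.27 and 0.38). Among the 44 from 51.9 to 62.3%, 19 and 15 rose (0.30 and 0.15). Between the treatments 11 of the GC-poorer members were lower with the fusion protein and 0 higher, against 1 lower and 4 higher of the GC-richer ones.

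**Figure D4:**
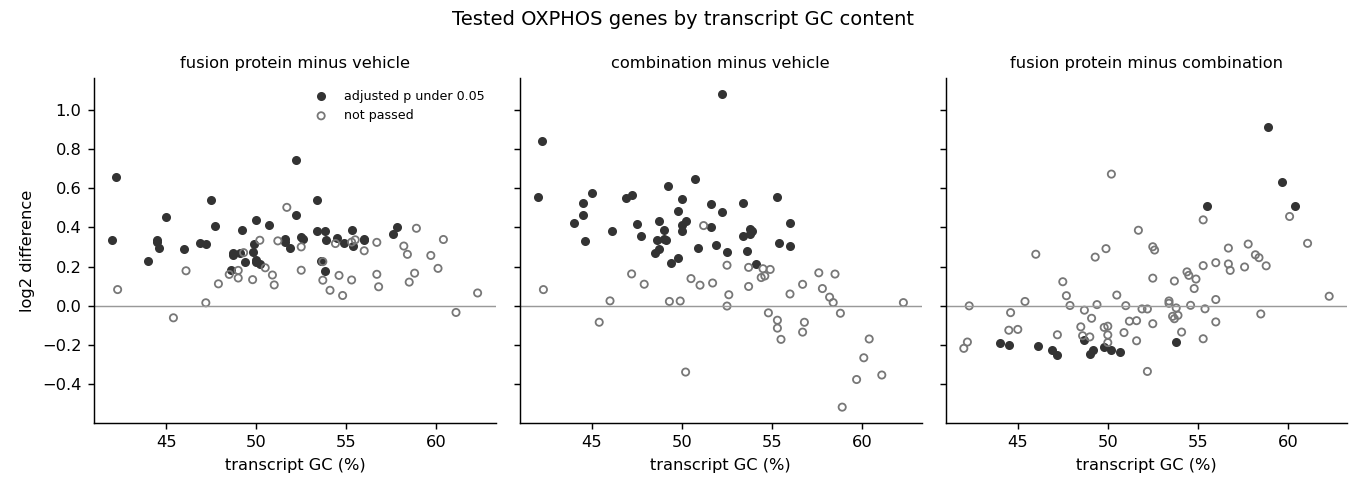
Log2 difference (vertical axis) of each tested member against its transcript GC content in percent (horizontal axis), for the fusion protein against vehicle, the combination against vehicle and the fusion protein against the combination. Filled points passed an adjusted p of 0.05; in the middle panel the points fall from left to right (Pearson r = -0.54), in the left panel hardly (-0.11), and in the right panel they rise (0.55).

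The same split showed which libraries carried the differences. The median of the GC-poorer members, taken in each library as the difference from the vehicle mean, ran from -0.06 to 0.04 in vehicle, 0.20 to 0.32 in fusion protein and 0.34 to 0.40 in combination libraries, without overlap between any groups. For the GC-richer members it ran from -0.16 to 0.24 in vehicle, 0.05 to 0.51 in fusion protein and -0.02 to 0.28 in combination libraries, and all groups overlapped. Over all members it ran from -0.07 to 0.13, 0.12 to 0.39 and 0.24 to 0.34, and fusion protein replicate 1 was the only treated library inside the vehicle range, below vehicle replicate 1.

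**Figure D5:**
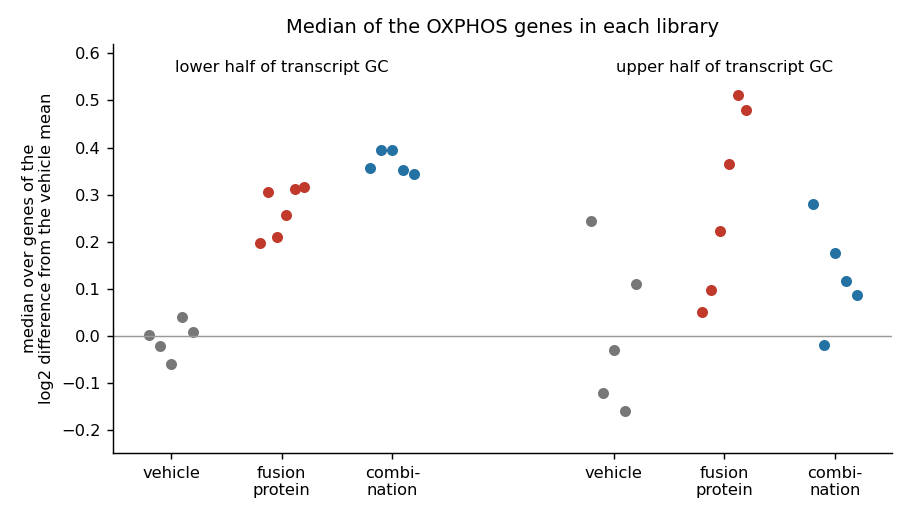
Median over members of the log2 difference from the vehicle mean (vertical axis) in each library (points), for the 43 GC-poorer members on the left and the 44 GC-richer members on the right: vehicle grey, fusion protein red, combination blue. On the left the 3 groups are separate, and on the right vehicle replicate 1 at 0.24 lies above 3 of the fusion protein libraries.

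Genes of the same pathway outside the naming rule were counted in the main fit, without trend removal or label covariate. There 12.0% of all tested genes were higher and 13.7% lower with the fusion protein, and 24.2% and 12.3% with the combination. Whether a list differed from these shares was not tested. Cytochrome c, further ATP synthase subunits, its inhibitor and the carriers and pores that serve it (10 listed, 10 tested) rose in 9 cases with the fusion protein and 10 with the combination (medians 0.28 and 0.37). Cycs, cytochrome c, rose by 0.30 and 0.26, and Atpif1, the inhibitor of ATP synthase, by 0.43 and 0.39. Slc25a3, the phosphate carrier, did not pass with the fusion protein (0.07, adjusted p = 0.604). Other assembly factors (36 listed, 34 tested) rose in 7 cases with 1 lower for the fusion protein, and in 14 with 0 lower for the combination (medians 0.07 and 0.17). Surf1, of complex IV assembly, rose by 0.30 and 0.36, Foxred1, of complex I assembly, by 0.32 and 0.41, and Atpaf1, of ATP synthase assembly, fell by 0.30 with the fusion protein. Enzymes of the TCA cycle (13) rose in 6 and 8 cases with 0 lower (medians 0.23 and 0.25), among them Sucla2 by 0.32 and 0.53 and Fh1, fumarase, by 0.27 and 0.46. Coenzyme Q synthesis genes (13) rose in 2 cases each, with 1 lower with the combination (Coq8b), and medians of 0.08 and 0.09. They rose about as often as all tested genes with the fusion protein and less often with the combination.

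Known transcription regulators of these genes were counted as well. Of 14 tested, 1 rose and 2 fell with the fusion protein (median -0.13), where 12.0% of all tested genes were higher and 13.7% lower, and 2 rose and 4 fell with the combination (0.04), where 24.2% were higher and 12.3% lower. Whether they differed from the members was not tested. Ppargc1a, the coactivator of mitochondrial biogenesis, fell by 0.36 with the fusion protein (adjusted p = 0.0253) and differed by 0.04 (0.813) with the combination. Ppargc1b, its relative, fell by 0.29 in both comparisons (0.00492 and 0.00384). Nrf1 differed by -0.16 (0.152) and -0.11 (0.314). Gabpa, the DNA-binding part of GABP, differed by 0.09 (0.322) with the fusion protein and rose by 0.31 (0.0019) with the combination, and Tfb1m, which modifies mitochondrial ribosomal RNA, rose in both, by 0.17 (0.0428) and 0.33 (0.000718). Esrra, Pprc1 and Polrmt, the mitochondrial RNA polymerase, fell with the combination by 0.45, 0.42 and 0.57. Members with an NRF1 match in the promoter window rose in 11 of 20 cases with the fusion protein and 9 with the combination, and those without in 27 and 28 of 54. For the ETS match the counts were 9 and 6 of 16, against 29 and 31 of 58 without.

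Mitochondrially encoded subunits are made from the other genome. Of 13 such mRNAs 7 passed the filter. The others, mt-Nd3, mt-Nd4l, mt-Co2, mt-Co3, mt-Atp6 and mt-Atp8, had scaled values of 1 to 12, beside 200166 to 375951 for mt-Co1. Whether low expression or a loss of reads in counting gave these values was not tested. Among the 7 tested, 0 rose and 1 fell with the fusion protein (median -0.09), where 12.0% of all tested genes were higher and 13.7% lower. With the combination 1 rose and 1 fell (0.25), where 24.2% were higher and 12.3% lower. mt-Nd6, the subunit of complex I encoded on the light strand, fell by 1.26 (adjusted p = 0.00294) and 1.11 (0.00552), and mt-Co1, the catalytic subunit of complex IV, rose by 0.54 with the combination (0.000967). The libraries were polyA-selected, and mt-Nd6 is a transcript with little or no polyA tail.

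Markers of the cell types of the ganglion were counted in the same way. Beside them, 12.0% of all tested genes were higher and 13.7% lower with the fusion protein, and 24.2% and 12.3% with the combination. The lists are short, and whether any of them differed from these shares was not tested. Of 13 neuron markers 2 rose and 1 fell with the fusion protein, and 3 rose and 1 fell with the combination (medians 0.11 and 0.08). The neuron markers thus rose about as often as all tested genes. Of 10 macrophage markers 5 rose with the fusion protein and 1 with the combination (medians 0.33 and 0.08), with summed scaled values of 2064 to 3634 in vehicle, 3408 to 5959 in fusion protein and 2674 to 3551 in combination libraries. Of 6 satellite glia markers 0 rose and 2 fell with the fusion protein (median -0.06), and 4 rose and 1 fell with the combination (0.31), with sums of 21307 to 24923, 20480 to 25201 and 27210 to 31651. Of 6 fibroblast markers 1 rose and 2 fell with the fusion protein, and 2 rose and 2 fell with the combination (medians 0.11 and 0.16), with sums of 15189 to 18267 in vehicle, 17029 to 20746 in fusion protein and 18583 to 25069 in combination libraries, the last wholly above vehicle. Dcn was the largest part of these sums, with 8712 to 11230 in vehicle and 12396 to 17844 in combination libraries. Col1a1 went the other way, with 983 to 1670 and 536 to 1148. Of 6 endothelium markers 1 rose and 0 fell with the fusion protein, and 1 rose and 1 fell with the combination, with sums of 2089 to 2308, 2108 to 2579 and 2023 to 2529. Schwann cell markers rose in 0 and 1 of 6 cases. Of 6 tested neutrophil markers 0 rose and 1 fell in each comparison, and erythroid (5), adipocyte (4) and smooth muscle (4) markers had 0 calls in both. Skeletal muscle markers rose in 0 of 6 tested cases in both comparisons, with sums of 56 to 3937 in vehicle, 61 to 1134 in fusion protein and 62 to 1155 in combination libraries. The part of these cell types, and of the quality transcripts above, in the members' differences was not tested.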

How the data were processed

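RNA-seq libraries of 16 ganglion samples were compared. Per the submitters' processing notes, FastQC, STAR, HTSeq and DESeq2 were used with build GRCm38; their versions and order are not given in the sources used here. The deposited table holds variance-stabilised log2 values of 36722 genes, which decode to whole numbers within 0.01 for 100% of values; the scaling step before the transform is not stated, so depth is unknown and no counting interval is given. The authors' GC column is in percent per the file headers, and the deposited p-value columns, whose comparison is not named, were not used.

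Genes with a mean of at least 6.99 (the lowest value plus 1; scaled value 31.8) over the 16 libraries entered a linear model of all libraries fitted by limma 3.58.1 under R 4.3.3, with moderated variances that allow a trend with level and resist outlying genes, two-sided, Benjamini-Hochberg adjustment over 13385 genes and a threshold of 0.05. Annotation came from GENCODE for GRCm38 (36345 genes matched); Python 3.11.15 was used for tables and plots. The model was tested on simulated data. Groups come from the sample labels.

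The members, gene lists and tests were chosen with earlier results of these data known. Named genes are, per comparison with vehicle and role class, the 2 largest and the 1 smallest absolute differences, all Sdh genes, up to 10 members past the threshold between the treatments, up to 6 lower in any comparison, and the tissue isoforms with their partners. Some further members are given for their role or their spread, chosen after their values were seen. Alternatives were the filter, normalization, model options, replicate block, label numbers, GC and length trends, thresholds and omission of each library. The fits with transcript GC trends and within label numbers, and the split by transcript GC, were chosen after seeing the data.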

Additional observations from a re-analysis of the deposited data

Results flagged for a closer look

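In 7 of 144 groups checked (48 named genes in 3 groups), 1 library lay far from the others of its group by Dixon's criterion at 95%. Chance alone flags about 1 group in 20. Vehicle replicate 4 was high for Atp5h (scaled value 2879, others 2552 to 2640), Atp5s (489, others 367 to 385) and Ndufaf7 (726, others 607 to 636). Fusion protein replicate 3 was low for Atp5h (3269, others 3665 to 3776), and fusion protein replicate 6 was high for Ndufv2 (3632, others 2615 to 2956). Combination replicate 5 was low for Cox7a2 (2512, others 2984 to 3128), and combination replicate 3 was high for Cyc1 (1562, others 1385 to 1427). No explanation for these values was tested.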

How the results depend on the processing

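For the fusion protein against vehicle, 27 members were higher without a filter, 30 at a threshold of 0.01, 75 with array weights (20.6% of all tested genes), 26 with 1 lower (median 0.13) when trends of transcript GC replaced those of gene GC, 24 with 1 lower (0.11) with gene GC and length trends removed and 25 with 1 lower (0.0898) with these and the label covariate. For the combination the median was 0.15 under quantile normalization, 0.17 with gene GC and 0.18 with transcript GC trends removed, and 0.0812 with trends and label covariate together, where 18 were higher and 3 lower; the label covariate alone gave 5 lower, and labels 12 to 19 alone, with 1 vehicle library, gave 9 higher (1 for the fusion protein). For the fusion protein against the combination, members higher and lower were 0 and 0 without a filter, 21 and 21 with array weights, 2 and 2 under quantile normalization (median 0.10), 8 and 3 with trends and label covariate, 26 higher with the covariate alone, 23 and 3 within labels 12 to 19 (median 0.0935), 11 higher at a threshold of 0.1, and 0 and 2 at 0.01. The causes of these shifts were not tested. For fits given here without a share of all tested genes, that share may have moved too. Member counts alone do not show whether it did, and the same holds for the replicate block below. Leaving out each library in turn gave 33 to 55 higher (0 lower, median 0.24 to 0.33) for the fusion protein, 44 to 49 higher and 0 to 1 lower (1 without vehicle replicate 4; median 0.25 to 0.28) for the combination, and 1 to 13 higher and 7 to 18 lower (median -0.03 to 0.00) between the treatments.

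Whether the replicate numbers of the labels pair the libraries is not known. Same-numbered libraries correlated between -0.20 and 0.60 in 15 pairs, 7 over 0.1, and 6 of 15 libraries correlated best with their own number. These values cannot settle it, since some same-numbered pairs correlated and others did not. The replicate block gave 39 higher, 48 higher, and 1 higher with 16 lower for the 3 comparisons (10 of the 12 lower members kept), ended the calls of Uqcr11 (0.83, adjusted p = 0.0806), Ndufb7 (0.58, 0.054) and Ndufa13 (0.47, 0.0892) between the treatments, and with trends removed gave 21 higher and 1 lower (median 0.0901), 33 higher (0.17), and 1 higher and 15 lower.

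Of the named members called, 1 of 25 (fusion protein), 7 of 22 (combination) and 0 of 10 (between treatments) stayed called under every alternative. Signs turned for Ndufaf5 with the fusion protein (-0.22 with trends removed, -0.21 with trends and label covariate, with transcript GC trends removed and with block and trends), Sdhd (-0.0161 with trends removed, -0.0143 with transcript GC trends removed, -0.0077 with trends and label covariate, -0.0008 with block and trends), Ndufs3 (-0.0253 with block and trends, -0.0085 with trends and label covariate), Atp5s (-0.0103, block and trends) and Cox7c (-0.0017, trends and label covariate), and with the combination for Cox7a2 (-0.0111 with trends removed, with or without block) and Ndufaf2 (-0.0077, trends and label covariate). The causes were not tested. A further 69 values of 18 results changed sign while passing in neither fit (-0.39 to 0.22). Read depth is unknown, so it sets no stated limit here.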
